A study of Mus musculus with 6 samples.

Results

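The genes described here are 44 mouse genes of lipogenesis, cholesterol and lipid droplets. They were chosen by name from a list and not by a cut on their values, though with earlier results of these data known. All 44 were found, each as a single Ensembl ID, among the 55401 genes of the count table, and all 44 passed the filter on low counts, as did 19197 genes in all. RNA of whole kidneys was sequenced in poly(A)-selected libraries of 3 control mouse kidneys and 3 kidneys with diabetic kidney disease (DKD), the kidney damage that follows long-standing diabetes. The labels give the group, under the heading of genotype, and a replicate number. The sources used here do not give strain, sex, age, or how and for how long the mice were diabetic. They do not say whether libraries come from separate animals, so p-values measure only the spread between these libraries, which may be technical.

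Cells make cholesterol from acetyl-CoA through the mevalonate pathway, and fatty acids from the same precursor through acetyl-CoA carboxylase and fatty acid synthase. The enzymes of both routes are under the control of the SREBP transcription factors, which are carried from the endoplasmic reticulum by SCAP when sterols are scarce and held there by the INSIG proteins when sterols are plentiful. Surplus fatty acids and cholesterol are esterified and kept in droplets coated with perilipins, and surplus cholesterol leaves the cell through ABC transporters whose genes are targets of the liver X receptors. In the kidney the proximal tubule lives mainly on the oxidation of fatty acids, and lipid droplets in tubule and glomerular cells are a known feature of diabetic kidneys.

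The libraries held 64816622 to 77417638 counts. Levels are given as CPM, the count of a gene scaled to a common library size with TMM factors, and 0 counts in a library allow a level of up to 0.0353 to 0.0505 CPM (3 counts, counting error only). The TMM factors were 0.917 to 0.9735 in controls and 0.9863 to 1.101 in DKD kidneys. Compared with scaling by library size alone, they lower DKD levels relative to those of controls. The kidney label was met by its markers in all 6 libraries: 10 proximal tubule markers summed to 17285 CPM or more, and 9 markers of other nephron segments to 5111 CPM or more. DKD replicate 1 stood apart from the other DKD kidneys. All 15 listed hepatocyte markers were above every control in it, with a sum of 4468 CPM against 277 to 400 CPM in controls and 155 to 164 CPM in DKD replicates 2 and 3. Serpina1a alone gave 172 to 258 CPM of the sums in controls, and 92.3 and 88.2 CPM in DKD replicates 2 and 3. Ahsg, Serpina3k and Tat, markers of hepatocytes, were at 376, 388 and 26.4 CPM in DKD replicate 1 and had no count in any other library.

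DKD replicates 2 and 3 carried a different set of markers. All 10 proximal tubule markers were below every control in both (sums of 21853 and 17285 CPM, against 36564 to 44665 CPM in controls and 37082 CPM in DKD replicate 1). In DKD replicate 1, 5 of the 10 were also below every control and 0 above, and Kap alone gave 22406 CPM of its sum. Of 10 macrophage markers, 9 were above every control in both, with sums of 236 and 296 CPM against 129 to 151 CPM in controls and 135 CPM in DKD replicate 1. Csf1r gave 89.1 CPM of that last sum, and in DKD replicate 1, 5 of the 10 were below every control and 3 above. Of 8 adipocyte markers, 6 were above every control in both. Adipoq, Plin1, Lep, Cfd and Adrb3 among these had no count in any control, so that any count put them above. In DKD replicate 2 they were low, from 0.0519 CPM (Lep) to 1.12 CPM (Cfd). The sum of all 8 was 37.1 to 59.8 CPM in controls and 101, 43.0 and 79.2 CPM in DKD kidneys, of which Car3, also made outside fat, gave 71.6 CPM in DKD replicate 1. The 4 markers without any count in controls and DKD replicate 1, namely Adipoq, Plin1, Lep and Retn, reached 2.03, 2.76, 0.141 and 0.0943 CPM in DKD replicate 3. In whole-kidney RNA, fewer cells of a type and less RNA per cell cannot be told apart.

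**Figure D1:**
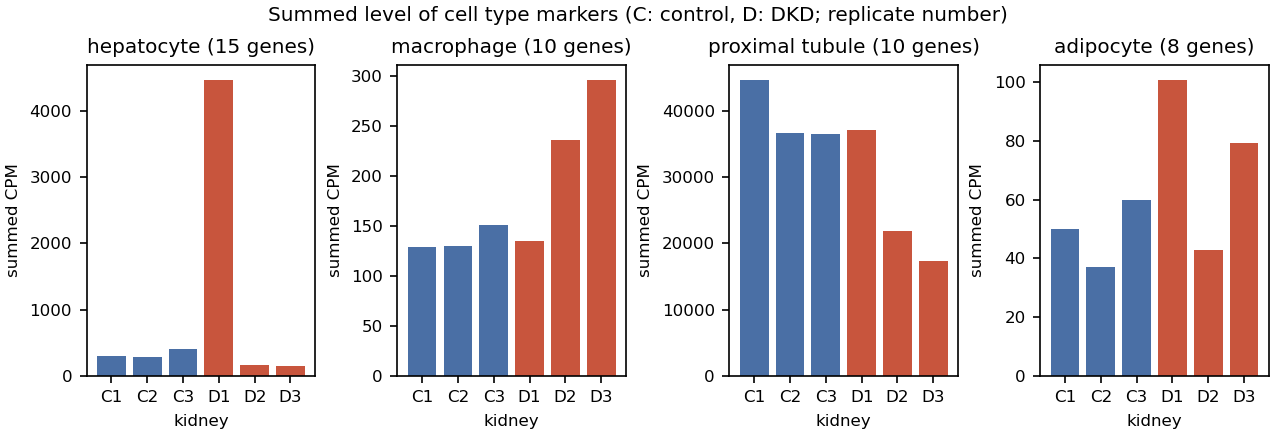
Summed CPM of 4 lists of cell type markers in each kidney, with controls in blue and DKD kidneys in red. The hepatocyte sum was 4468 CPM in DKD replicate 1, and the proximal tubule sums of DKD replicates 2 and 3 (21853 and 17285 CPM) were below all others.

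With all 6 kidneys, none of the 44 lipid genes passed the threshold in the comparison of DKD with control kidneys. The quasi-likelihood test of edgeR, adjusted over all genes, called 0 of 44 members and 0% of all 19197 genes, and at an unadjusted p under 0.05 there were 6 members (13.6%) against 19.2% of all genes. The 3 higher among them were Elovl6, Abcg1 and Apoe, where 12.2% of all genes were higher, and the 3 lower were Mvk, Sqle and Msmo1, where 7.05% were lower. DKD and control CPM did not overlap for 9 members (20.5%, with 3 higher and 6 lower in DKD), against 25.4% of all genes (13.8% higher and 11.5% lower). Both shares were below those of all genes. By direction, the 6 lower without overlap were 13.6% of the members, above the share of all genes, and the 3 higher were 6.82%, below it. The median log2 difference, DKD minus control, was -0.13 for the members and 0.02 for all genes tested. Fitted levels were lower in DKD for 28 members and higher for 16 (36.4%, against 52.4% of all genes), and the difference was under 0.5 on the log2 scale in either direction for 28 members (63.6%, against 69.8% of all genes).

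The roles differed in where their medians lay. The median log2 difference was -0.14 for the 5 SREBP regulators, -0.32 for the 14 sterol synthesis genes, 0.01 for the 9 genes of fatty acid synthesis and desaturation, 0.17 for the 10 storage genes and 0.72 for the 6 genes of efflux and lipoprotein handling. These medians are descriptions, and the roles were not tested against each other. Several rest on 1 library. Without DKD replicate 1 the median of sterol synthesis was -0.54, that of fatty acid synthesis -0.23 and that of all members -0.23. Sterol synthesis was at -0.29 without control replicate 1, and at -0.29 and -0.24 when DKD replicate 2 or 3 was left out. Efflux and lipoprotein handling ran from 0.48 without DKD replicate 2 to 0.94 without control replicate 3. Scaling by library size alone gave -0.014 for the SREBP regulators, -0.17 for sterol synthesis, 0.135 for fatty acid synthesis, 0.33 for storage and 0.88 for efflux. The median of fatty acid synthesis was also -0.11 and 0.13 when control replicate 1 or 3 was left out, and -0.016 and 0.13 when DKD replicate 2 or 3 was. Storage was at 0.10 without control replicate 2, and at 0.098 with a stricter low count filter, which Cidec did not pass. The SREBP regulators were at -0.068 without control replicate 3, and at -0.093 and -0.095 when DKD replicate 2 or 3 was left out, and all members at -0.037 without DKD replicate 3. On the log2 scale DKD replicate 1 lay on the other side of the control mean from the average of DKD replicates 2 and 3 for 22 of 44 members. It was above both of them for 28 members, 11 of the 14 sterol synthesis genes among these. The same counts were not taken over all genes, so they do not show that the members differ from other genes in this.

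**Figure D2:**
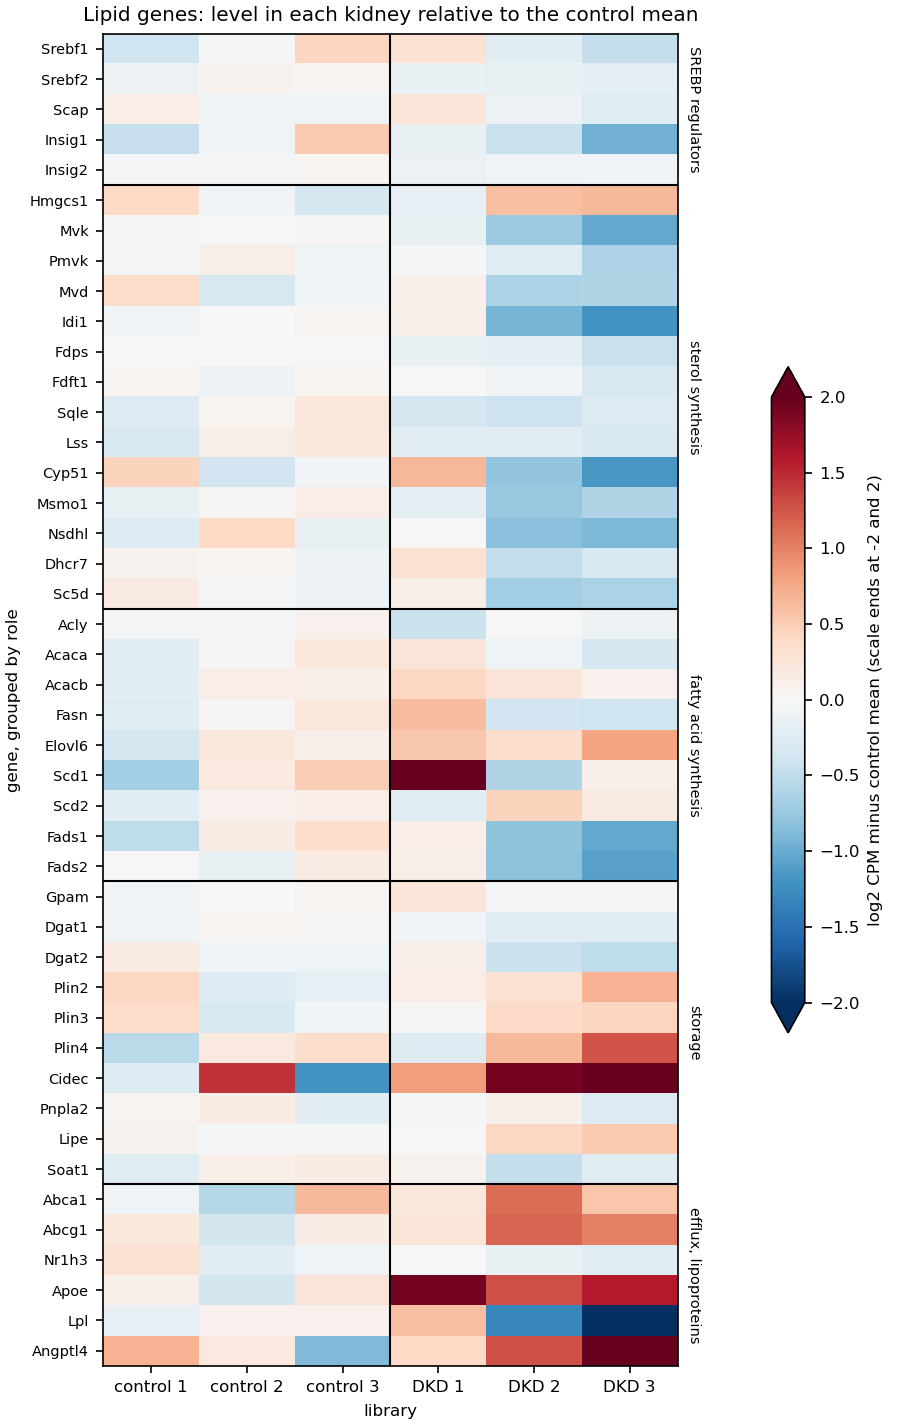
Level of each of the 44 genes (rows, grouped by role) in each library (columns), as log2 CPM with a prior count of 2, minus the mean of the 3 controls. Most sterol synthesis genes are blue in DKD replicates 2 and 3 and close to the controls in DKD replicate 1, and Apoe is red in all 3 DKD kidneys.

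Leaving out DKD replicate 1 changed the calls. In that fit of 3 control and 2 DKD kidneys, edgeR called 13 of the 44 members (29.5%), against 15.5% of 19989 genes. The balance was to the lower side: 10 members fell (22.7%, against 5.84% of all genes) and 3 rose (6.82%, against 9.67%). The 10 were the sterol genes Mvk, Idi1, Cyp51, Msmo1, Nsdhl and Sc5d, the desaturases Fads1 and Fads2, the acyltransferase Dgat2 and the lipase Lpl, and the 3 were Apoe, Abcg1 and Lipe. No member was called when any other single library was left out (0.0348% of all genes were without control replicate 1, 0.0051% without DKD replicate 3 and 0% in the others), or with no low count filter (0.0134%). Limma-voom with sample quality weights, which gave DKD replicate 1 the lowest weight of the 6 libraries (0.302), called 13 members where 17.7% of all genes were called. Of these 5 were higher (9.94% of all genes) and 8 lower (7.75% of all genes). DESeq2 called Apoe alone (adjusted p = 5.55e-10) where 9.11% of all genes were called (6.22% higher, 2.89% lower). All these fits use the same libraries and are not independent of each other.

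**Figure D3:**
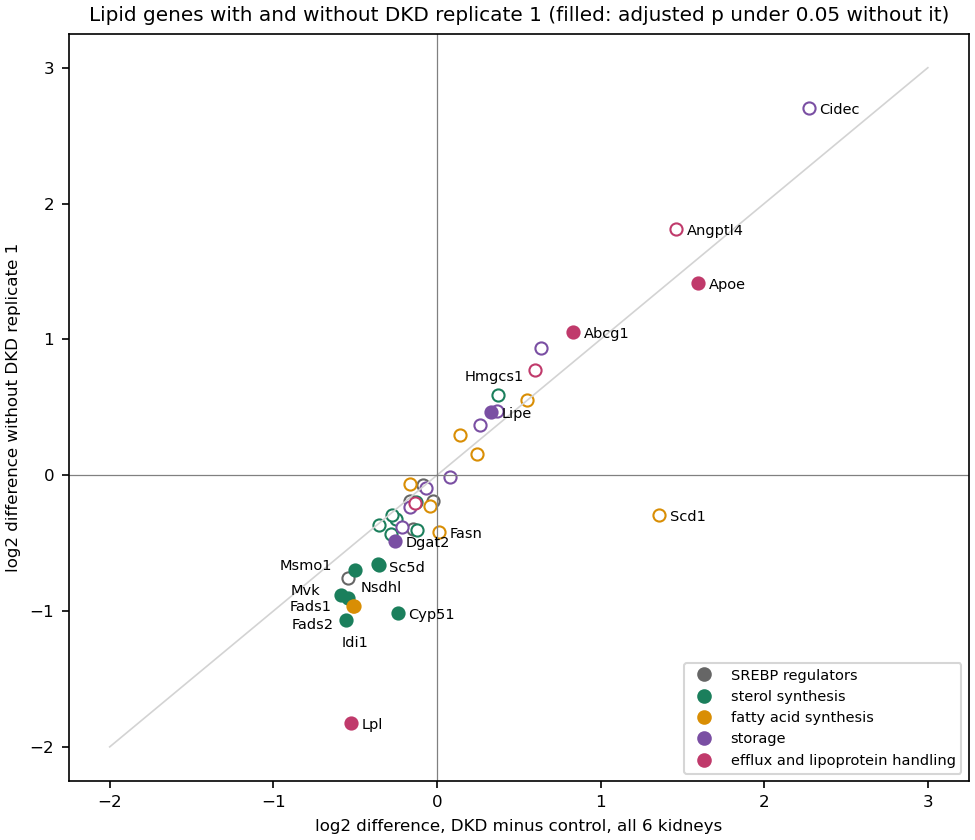
Log2 difference of each gene with all 6 kidneys (x axis) and without DKD replicate 1 (y axis), coloured by role, with filled points for an edgeR adjusted p under 0.05 in the second fit. Sterol genes such as Idi1 and Cyp51 lie below the grey line of equal values, at -1.07 and -1.01 without that kidney, and Scd1 moves from 1.36 to -0.29.

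Of the 5 regulators of SREBP, 4 differed by less than 0.5 on the log2 scale, and Insig1 by more. Srebf2, which encodes the SREBP that mainly drives sterol genes, was at 90.2, 101 and 98.9 CPM in control and 88.2, 87.0 and 84.2 CPM in DKD kidneys. Every DKD value lay below every control value with TMM factors, yet the log2 difference was only -0.16 ± 0.09 (SE; edgeR adjusted p = 0.339). With library size alone it was -0.014 (edgeR adjusted p = 0.949). Insig2, an anchor of the SREBP complex, was also lower in each DKD kidney with TMM factors, with 45.9, 45.8 and 48.0 CPM in control and 42.7, 44.5 and 44.6 CPM in DKD (log2 difference -0.08 ± 0.08, adjusted p = 0.57). With library size alone Insig2 turned to 0.068. Insig1, the sterol-responsive form, was at 33.7, 44.5 and 67.1 CPM in control and 41.9, 34.1 and 23.8 CPM in DKD kidneys. Its controls spread widely and the groups overlapped (-0.54 ± 0.30, adjusted p = 0.356). Srebf1, which encodes the SREBP best known for fatty acid genes, was at 38.6, 49.9 and 68.1 CPM in control and 61.8, 43.3 and 36.6 CPM in DKD kidneys (-0.14 ± 0.26, adjusted p = 0.788). Scap, the escort of SREBP, was at 101, 88.9 and 86.8 CPM in control and 109, 84.8 and 78.0 CPM in DKD kidneys (-0.02 ± 0.14, adjusted p = 0.94). For both genes DKD replicate 1 was the highest DKD kidney and the groups overlapped. Messenger levels do not show how much SREBP protein was cut and active.

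Sterol synthesis genes had lower fitted levels in DKD for 13 of 14, where 47.6% of all genes had. None passed the threshold with all 6 kidneys, with edgeR adjusted p from 0.18 to 0.819. Msmo1, a demethylase of sterol intermediates, was at 34.9, 39.2 and 42.5 CPM in control and 34.1, 22.8 and 25.5 CPM in DKD kidneys. DKD replicate 1 lay just under the lowest control and the others well below it (-0.50 ± 0.16, adjusted p = 0.18). Mvk, mevalonate kinase, held a narrow range of 15.6, 16.1 and 16.2 CPM in controls and was at 14.4, 9.60 and 7.80 CPM in DKD kidneys (-0.59 ± 0.22, adjusted p = 0.223). Sqle, squalene epoxidase and a controlled step of the pathway, was at 76.0, 93.3 and 105 CPM in control and 71.5, 68.0 and 74.9 CPM in DKD kidneys. Here DKD replicate 1 was level with the other DKD kidneys (-0.35 ± 0.13, adjusted p = 0.209). Fdps, farnesyl diphosphate synthase, was at 22.2, 22.3 and 21.9 CPM in control and 20.1, 19.4 and 16.3 CPM in DKD kidneys (-0.25 ± 0.11, adjusted p = 0.273). Lss, which closes the ring to lanosterol, was at 22.2, 30.4 and 32.1 CPM in control and 23.7, 23.8 and 22.6 CPM in DKD kidneys, and the groups overlapped (-0.27 ± 0.15, adjusted p = 0.346). Groups did not overlap for 4 of the 14 genes, Msmo1, Mvk, Sqle and Fdps, all lower in DKD, where 11.5% of all genes were lower without overlap. Overlap was read with TMM factors only. With library size alone the log2 differences of Msmo1, Mvk, Sqle and Fdps were smaller, at -0.36, -0.46, -0.21 and -0.11.

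Without DKD replicate 1, 6 of the 14 sterol genes were called lower and none higher (5.84% of all genes were called lower and 9.67% higher). Fitted levels were lower for 13 and higher for 1, Hmgcs1, and the median of the 14 was -0.54. Idi1, the isomerase of isopentenyl diphosphate, was at 87.7, 90.9 and 93.9 CPM in control and 98.3, 47.5 and 39.7 CPM in DKD kidneys. It was the highest of all 6 in DKD replicate 1 and the lowest in the other DKD kidneys, so the log2 difference was -0.55 ± 0.33 with all 6 and -1.07 ± 0.11 (adjusted p = 0.00301) without that kidney. Cyp51, lanosterol demethylase, was at 367, 209 and 259.5 CPM in control and 430, 157 and 121 CPM in DKD kidneys, with the same order (-0.24 ± 0.50, and -1.01 ± 0.25 without DKD replicate 1, adjusted p = 0.0353). Nsdhl, a sterol dehydrogenase, was at 83.8, 133 and 90.8 CPM in control and 101, 56.1 and 54.0 CPM in DKD kidneys (-0.91 ± 0.20 without DKD replicate 1, adjusted p = 0.0268). Sc5d, a sterol desaturase, was at 71.1, 61.9 and 58.7 CPM in control and 68.7, 39.9 and 41.2 CPM in DKD kidneys (-0.66 ± 0.11 without it, adjusted p = 0.0124). Mvk and Msmo1 were at -0.88 ± 0.15 and -0.70 ± 0.12 in that fit (adjusted p = 0.0115 and 0.0124). The kidneys with these low values are those with all 10 proximal tubule markers below every control and 9 of 10 macrophage markers above. In both of them 5 of 6 endothelial markers (sums of 250.1 and 278 CPM, against 193 to 216 CPM in controls) and 6 of 9 markers of other kidney segments (7088 and 6563 CPM, against 5111 to 5861 CPM) were also above every control. DKD replicate 1 too had 6 of 9 markers of other segments (6400 CPM) and 3 of 6 endothelial markers above every control. It also had 1 of each list and 5 of 10 proximal tubule markers below every control. The part of any of these in the result was not tested.

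Hmgcs1 was the exception in DKD replicates 2 and 3, above the control mean where the other 13 sterol genes were below it. It encodes the cytosolic synthase that makes HMG-CoA, and was at 355, 258 and 210 CPM in control and 238, 409 and 421 CPM in DKD kidneys. Both of those DKD kidneys were above every control, and DKD replicate 1 lay inside the control range. The log2 difference was 0.38 ± 0.27 (adjusted p = 0.474), and leaving out DKD replicate 1 gave 0.59 ± 0.20 (adjusted p = 0.0998). Weighted limma-voom called it higher (0.67 ± 0.18, adjusted p = 0.0455). The other 4 sterol genes, Pmvk, Mvd, Fdft1 and Dhcr7, had log2 differences from -0.36 to -0.12 with all 6 kidneys, each with overlap between the groups.

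**Figure D4:**
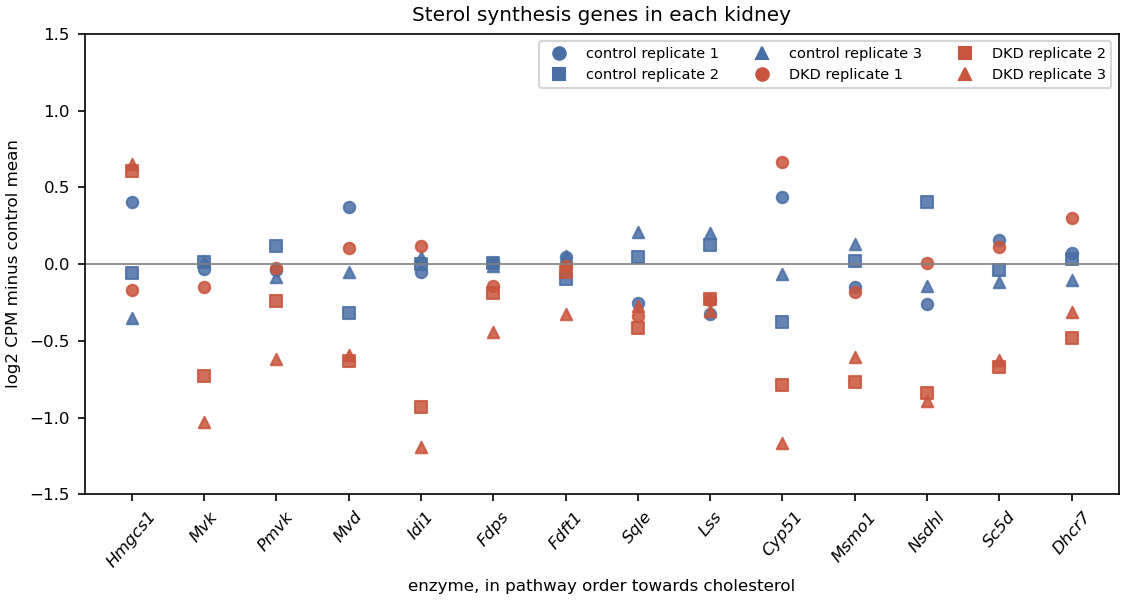
Sterol synthesis genes in pathway order (x axis) with the level of each library as log2 CPM minus the control mean (y axis). Squares and triangles in red, DKD replicates 2 and 3, lie below 0 for 13 of 14 genes and above 0 for Hmgcs1, while red circles, DKD replicate 1, stay near the controls for most.

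Promoter sequences are shown for Hmgcs1, by a rule that took SREBP regulators and sterol synthesis genes whose window holds the sterol regulatory element. No other such gene met it. Mvk, Idi1 and Nsdhl, 3 sterol genes lower in DKD replicates 2 and 3, were added after their values were seen. Because of these choices, the sequences cannot relate the element to a direction of change. Each is the 250 bases before the RefSeq start (build GRCm38.p6, plus strand, 5′ to 3′): chr13:119690101-119690350, chr5:114444019-114444268, chr13:8885356-8885605 and chrX:72918271-72918520, in that order. Capitals mark the sterol regulatory element TCACNCCAC, to which SREBP can bind, and the CCAAT box CCAAT, bound by NF-Y, a usual partner of SREBP; both were searched on both strands, so that a CCAAT box of the minus strand reads ATTGG.
Hmgcs1: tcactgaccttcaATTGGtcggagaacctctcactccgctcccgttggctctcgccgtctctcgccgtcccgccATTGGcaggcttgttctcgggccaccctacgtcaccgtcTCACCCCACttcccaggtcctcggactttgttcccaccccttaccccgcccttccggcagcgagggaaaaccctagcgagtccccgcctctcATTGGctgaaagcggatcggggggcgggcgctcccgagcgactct
Mvk: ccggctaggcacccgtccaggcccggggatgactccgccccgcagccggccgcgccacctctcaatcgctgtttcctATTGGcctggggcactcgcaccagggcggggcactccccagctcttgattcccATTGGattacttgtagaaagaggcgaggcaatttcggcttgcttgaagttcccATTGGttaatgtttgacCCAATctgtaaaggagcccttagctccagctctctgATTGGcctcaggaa
Idi1: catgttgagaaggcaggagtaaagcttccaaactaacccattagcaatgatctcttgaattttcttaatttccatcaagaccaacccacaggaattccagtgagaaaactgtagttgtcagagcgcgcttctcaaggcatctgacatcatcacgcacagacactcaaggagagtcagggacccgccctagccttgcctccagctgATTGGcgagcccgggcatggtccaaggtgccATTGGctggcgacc
Nsdhl: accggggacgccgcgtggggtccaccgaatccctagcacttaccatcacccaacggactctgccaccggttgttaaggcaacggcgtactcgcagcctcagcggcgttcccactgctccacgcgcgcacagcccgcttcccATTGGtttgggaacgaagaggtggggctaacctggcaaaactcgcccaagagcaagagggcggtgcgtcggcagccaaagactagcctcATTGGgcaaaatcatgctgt

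Of the 44 members, 33 had a promoter window in the RefSeq table, which spans 250 bases before to 50 after each start. The sterol element was found in 1 of them, Hmgcs1, where it starts 137 bases before the start of transcription, and in 1.24% of all 32851 windows (1.44% of genes). The CCAAT box was found for 11 of 11 sterol synthesis genes with a window and 23 of 33 members (69.7%), against 41.1% of all genes and 37.4% of all windows. Mvk had 5 CCAAT boxes in the stretch shown, Hmgcs1 had 3, and Idi1 and Nsdhl had 2 each. The 2 motifs share no bases in these stretches. A match is a run of letters and not a measured binding site, and the absence of TCACNCCAC elsewhere says only that these letters are not in that window.

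Genes of fatty acid synthesis lay on both sides of the controls, with 5 of 9 fitted higher in DKD and 4 lower, and none called. Elovl6, which lengthens palmitate to stearate, was the gene of this role whose groups did not overlap, at 11.5, 16.9 and 15.4 CPM in control and 20.9, 18.3 and 24.8 CPM in DKD kidneys (0.55 ± 0.18, adjusted p = 0.183). Its lowest DKD kidney was above its highest control, and the value was 0.55 ± 0.20 without DKD replicate 1 (adjusted p = 0.114). Acacb, the acetyl-CoA carboxylase of the mitochondrial surface, was at 23.4, 30.3 and 29.4 CPM in control and 36.6, 33.0 and 29.1 CPM in DKD kidneys (0.25 ± 0.14, adjusted p = 0.354). Acly, Acaca and Scd2, which supply acetyl-CoA, commit it to fatty acids and desaturate the product, had log2 differences of -0.17, -0.04 and 0.14 with overlapping groups. Fasn, fatty acid synthase, was at 56.2, 67.5 and 78.5 CPM in control and 102, 51.2 and 50.5 CPM in DKD kidneys, the highest in DKD replicate 1 and the lowest in the other DKD kidneys.

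The desaturases Fads1 and Fads2, which make long polyunsaturated fatty acids, were lowest in DKD replicates 2 and 3. Fads2 was at 219, 199 and 246 CPM in control and 240, 124 and 104 CPM in DKD kidneys, with DKD replicate 1 inside the controls and the others below them (-0.50 ± 0.31, adjusted p = 0.4). Fads1 was at 66.2, 105 and 120 CPM in control and 104, 53.9 and 46.2 CPM in DKD kidneys (-0.52 ± 0.36, adjusted p = 0.458). Without DKD replicate 1 they fell by 0.96 ± 0.13 and by 0.97 ± 0.24 (log2; adjusted p = 0.00615 and 0.0385).

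Scd1 had its high value in 1 kidney only. This gene of the stearoyl-CoA desaturase, abundant in liver and fat, was at 45.0, 82.5 and 101 CPM in control kidneys and 462, 47.5 and 77.8 CPM in DKD kidneys. The library at 462 CPM is DKD replicate 1, the one with the hepatocyte markers, and the other DKD kidneys lay inside the control range. The log2 difference was 1.36 ± 0.92 (adjusted p = 0.457) with it and -0.29 ± 0.38 (adjusted p = 0.658) without it, so the direction rests on that library. The part of the hepatocyte transcripts in it was not tested. How reads shared by the related genes Scd1 and Scd2 were divided is not given in the sources used here.

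Groups overlapped for all 10 storage genes, where 25.4% of all genes had groups without overlap. Plin2, the main perilipin coat of droplets outside fat tissue, was at 126, 79.7 and 85.1 CPM in control and 104, 118 and 153 CPM in DKD kidneys, where control replicate 1 overlapped the DKD range (0.37 ± 0.22, adjusted p = 0.386). Plin4, another perilipin, was low, at 1.11, 1.86 and 2.09 CPM in control and 1.37, 2.57 and 3.92 CPM in DKD kidneys (0.63 ± 0.44, adjusted p = 0.454). Cidec, which fuses droplets in fat cells, was at 0.135, 0.50 and 0.0564 CPM in control and 0.315, 0.701 and 2.33 CPM in DKD kidneys. It passed the low count filter only through the DKD kidneys, so its values are given with no test. The highest Plin4 and Cidec values were in DKD replicate 3, the library with the highest Adipoq and Plin1, and the part of fat tissue in them was not tested. Lipe, hormone-sensitive lipase, was at 18.2, 16.8 and 17.0 CPM in control and 17.3, 23.1 and 25.0 CPM in DKD kidneys (0.33 ± 0.15, adjusted p = 0.283), and rose by 0.46 ± 0.11 without DKD replicate 1 (adjusted p = 0.0336).

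The acyltransferases that complete triglycerides had lower fitted levels in DKD. Dgat1 was at 30.5, 32.8 and 32.7 CPM in control and 30.8, 27.2 and 27.6 CPM in DKD kidneys (-0.17 ± 0.09, adjusted p = 0.349). Dgat2 was at 205, 174 and 171 CPM in control and 196, 136 and 128 CPM in DKD kidneys, with a log2 difference of -0.26 ± 0.18 with all 6 kidneys (adjusted p = 0.459) and -0.48 ± 0.12 when DKD replicate 1 was left out (adjusted p = 0.0343). The 4 remaining storage genes were Gpam, the first acyltransferase of the route, Pnpla2, the triglyceride lipase of droplets, Soat1, which esterifies cholesterol, and Plin3, a perilipin. Their log2 differences ran from -0.21 to 0.26, each with overlapping groups.

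Apoe had the smallest p of the 44 genes and was higher in every DKD kidney. Apolipoprotein E, a lipoprotein component made by liver, macrophages and other cells, was at 122, 88.2 and 135 CPM in control kidneys and 426, 276 and 341 CPM in DKD kidneys. The lowest DKD kidney was above the highest control, and the mean was 3.02-fold that of controls (115 ± 24.2 against 348 ± 75.4 CPM, SD, n = 3; log2 difference 1.60 ± 0.22, edgeR adjusted p = 0.103). Its highest value was in DKD replicate 1, the library with hepatocyte markers. Without that library it rose by 1.41 ± 0.19 (adjusted p = 0.0057). All 15 hepatocyte markers were above every control in DKD replicate 1. In DKD replicates 2 and 3, 2 of them were above every control in both and 3 below. Of 10 macrophage markers, 3 were above every control in DKD replicate 1 and 5 below, and 9 were above in both other DKD kidneys. The part of either cell type in the Apoe level was not tested.

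The cholesterol exporter Abcg1 was at 6.14, 4.11 and 5.91 CPM in control and 6.28, 11.9 and 10.7 CPM in DKD kidneys. DKD replicate 1 was only just above the highest control (0.83 ± 0.28, adjusted p = 0.189), and without it Abcg1 rose by 1.05 ± 0.22 (adjusted p = 0.0206). Abca1, the exporter that loads apolipoprotein A-I, was at 18.4, 13.1 and 30.3 CPM in control and 22.7, 42.3 and 28.6 CPM in DKD kidneys, with overlapping groups (0.60 ± 0.35, adjusted p = 0.388). Nr1h3, the liver X receptor alpha that drives both, was at 55.6, 38.9 and 42.6 CPM in control and 45.3, 41.0 and 38.7 CPM in DKD kidneys (-0.13 ± 0.15, adjusted p = 0.647). Macrophage markers were high in the same kidneys as Abcg1, DKD replicates 2 and 3, and their part in it was not tested.

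Lpl and its inhibitor lay on opposite sides of the controls in DKD replicates 2 and 3. Lpl, lipoprotein lipase, was at 423, 507 and 504 CPM in control and 723, 192 and 80.4 CPM in DKD kidneys, so that the DKD values lay on both sides of all controls. The log2 difference was -0.53 ± 0.75 (adjusted p = 0.731) with all 6 kidneys, and without DKD replicate 1 it fell by 1.82 ± 0.37 (adjusted p = 0.0256), the lowest value among the members in that fit. Angptl4, the secreted inhibitor of lipoprotein lipase and a target of the PPAR receptors, was at 33.1, 23.2 and 11.0 CPM in control and 26.8, 50.0 and 109 CPM in DKD kidneys. DKD replicate 1 was inside the controls for it (1.46 ± 0.62, adjusted p = 0.271). In the fit without that kidney the value was 1.81 ± 0.56 (edgeR adjusted p = 0.0993), and weighted limma-voom called it higher (1.79 ± 0.48, adjusted p = 0.0415).

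**Figure D5:**
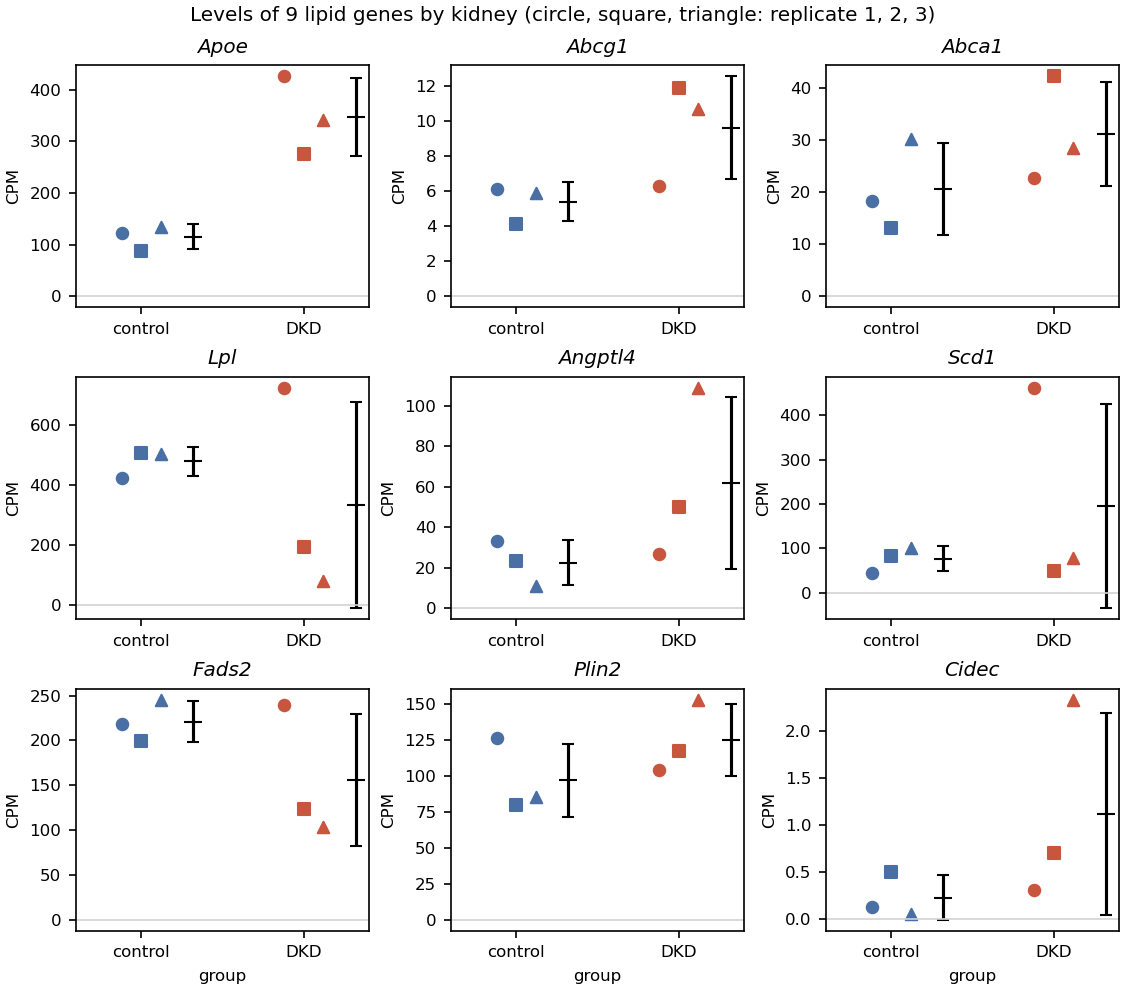
CPM of 9 lipid genes in each control (blue) and DKD (red) kidney, with the mean and SD of each group in black (n = 3). Apoe is higher in all 3 DKD kidneys, Scd1 and Lpl have their highest value in DKD replicate 1, and Fads2 and Lpl are below the controls in DKD replicates 2 and 3.

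Levels of different genes were compared per kilobase of annotated exon, as CPM per kb. In controls Fads2, Cyp51, Hmgcs1 and Dgat2 led with 67.1, 63.1, 59.7 and 59.4 CPM per kb, followed by Apoe at 53.8 and Lpl at 45.6. In DKD kidneys Apoe led with 163 CPM per kb, ahead of Hmgcs1 at 77.5. Acaca, Abcg1, Plin4 and Cidec were lowest in controls, at 1.10, 0.738, 0.292 and 0.124 CPM per kb. Exon lengths are from an annotation of another build than the counts, and neighbours in this order were not tested.

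A further 59 genes of the same pathways, of which 56 passed the low count filter, were read the same way. None was called with all 6 kidneys, and 15 (26.8%) had groups without overlap, near the 25.4% of all genes. All 10 further sterol genes had a lower fitted level in DKD (median -0.14), where 47.6% of all genes had. Ggps1, 1 of these genes, was at 0.0080 without DKD replicate 1. Scaling by library size alone moved the median of all genes tested from 0.02 to 0.17, so a median of this size depends on the scaling. Among the 10 further sterol genes Acat2, the thiolase at the head of the pathway, was at 123, 139 and 118 CPM in control and 102, 89.3 and 97.1 CPM in DKD kidneys (-0.39 ± 0.10, adjusted p = 0.139). Acsl5, an acyl-CoA synthetase, was higher in each DKD kidney, with 77.2, 67.6 and 69.5 CPM in control and 91.8, 106 and 114 CPM in DKD (0.54 ± 0.11, adjusted p = 0.106). Scarb1, the receptor of high-density lipoprotein, was tight within the groups, at 13.2, 13.1 and 14.2 CPM in control and 21.6, 23.1 and 21.8 CPM in DKD kidneys (0.71 ± 0.10, adjusted p = 0.103). DKD replicate 1 was level with the other DKD kidneys for Scarb1. Pltp, phospholipid transfer protein, was at 3.90, 5.45 and 6.40 CPM in control and 6.26, 13.7 and 16.7 CPM in DKD kidneys with DKD replicate 1 inside the controls (1.22 ± 0.37, adjusted p = 0.165).

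Without DKD replicate 1, 10 of the same 56 genes were called lower and 4 higher, where 5.84% of all genes were called lower and 9.67% higher. The 4 sterol genes called, Acat2, Lbr, Tmem97 and Erg28, all fell. Acss2, which makes acetyl-CoA from acetate, and the citrate carrier Slc25a1 fell by 0.67 and by 0.43 (log2; adjusted p = 0.0151 and 0.0296). Vldlr, a lipoprotein receptor, and Cideb, a droplet protein of liver and kidney, fell by 0.54 and by 0.75 (adjusted p = 0.0213 and 0.0107). Elovl5 and Nceh1 also fell. Acsl1, Acsl5, Scarb1 and Pltp rose. Plin1 and Cidea, droplet genes of fat cells, passed the low count filter of this fit only through the DKD kidneys, so their values are given with no test. Plin1 was at 0.740 and 2.76 CPM and Cidea at 0.273 and 2.14 CPM in DKD replicates 2 and 3, with no count in the other 4 libraries.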

How the data were processed

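RNA of 6 whole mouse kidneys (3 control, 3 DKD) was compared from 1 deposited table of raw read counts per Ensembl gene, made by the authors and not normalized. The build GRCm39 and the tools StringTie, HISAT2, edgeR and fastp are named, per the submitters' processing notes. What each tool did, the gene annotation and the use of strand in counting: not given in the sources used here. Symbols came from a table of gene names (55141 of 55401 IDs matched).

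Counts were tested in R 4.3.3 with edgeR 4.0.16 (robust quasi-likelihood F test, TMM factors, default low count filter), with Benjamini-Hochberg adjustment over all 19197 genes and a threshold of 0.05. An SE is the size of the log2 difference over the square root of its F. Alternatives were other scalings and filters, DESeq2 1.42.0, limma 3.58.1 (voom with sample quality weights), a replicate block and leaving out each library. The fits were also run on simulated counts with the same spread setting for all genes and no deviating library. That run therefore does not bear on the effect of DKD replicate 1.

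The members and lists were chosen with earlier results of these data known. Exon lengths are GENCODE M21 (GRCm38). Full statistics are given for up to 5 members of each role by the smallest p, and for up to 3 genes of each further list, of which examples are printed. Cidec is among these members but is given without its test. Hmgcs1, Idi1, Cyp51, Nsdhl, Sc5d, Dgat2 and Lpl were added after their values were seen, as were further genes named from the fit without DKD replicate 1. Members that share over 10% of annotated exon bases with another gene, on either strand, are Fdps (26.7%), Fdft1 (18.3%), Lipe (15.6%), Scap (13.2%) and Hmgcs1 (12.1%), so their counts are less certain.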

Additional observations from a re-analysis of the deposited data

How the results depend on the processing

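The count of all genes past the threshold was 0 with edgeR on all 6 libraries, 1749 with DESeq2, 3397 with weighted limma-voom, 4 with no filter, and 0 to 3101 when 1 library was left out (3101 without DKD replicate 1). For the members it was 0, 1 with DESeq2, 13 with weighted limma-voom, and 0 to 13 when 1 library was left out (13 without DKD replicate 1). With the other scalings, the stricter filter and the replicate block both counts were 0. Same-numbered libraries deviated together only weakly (r = 0.0336, 0.0227 and 0.0344), though each correlated best with its own number, so the numbers were not treated as pairs, and the replicate block changed no call.

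Of 447 alternative values for single members, 407 kept their direction and side of the threshold, 27 passed it, and 13 turned. Scaling by library size alone took the median over all tested genes from 0.02 to 0.17. Insig2 was then at 0.068, Scap at 0.12 and Nr1h3 at 0.019, and the median of all members was 0.02. With weighted limma-voom Scd1 was at -0.28. Leaving out 1 library gave ranges of -0.39 to 0.093 for Srebf1, -0.19 to 0.072 for Scap, -0.29 to 1.82 for Scd1, -0.24 to 0.030 for Nr1h3 and -1.01 to 0.075 for Cyp51. The cause of these turns was not tested.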

Other observations

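Further lipid genes with their highest level by far in DKD replicate 1, the library with hepatocyte markers, were picked after their values were seen. Thrsp, a lipogenic gene of liver and fat, was at 24.1 CPM in DKD replicate 1 and between 1.70 and 3.12 CPM in the other 5 libraries. Abcg5 and Abcg8, which pair to export sterols into bile, were at 4.78 and 4.93 CPM there and at most 0.189 and 0.286 CPM elsewhere. Lcat, which esterifies plasma cholesterol, was at 8.42 CPM there and between 0.455 and 1.47 CPM elsewhere.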
